A study of Sus scrofa with 6 samples.

Results

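Capillary supply was examined in pig muscle through the RNA of 10 endothelial and angiogenic genes, VEGFA, KDR, FLT1, PECAM1, CDH5, ENG, VWF, TEK, NOS3 and HIF1A. A probe counted as a member when its gene name was one of these symbols, or when its description held such a symbol in brackets, the words vascular endothelial growth factor or the word endoglin. These are 10 of the 4042 gene symbols on the array. The rule picked 22 of the array's 43603 probes, 19 of them found by symbol and 3 by description alone. The 3 are a further FLT1 probe, and a VEGFC probe and a VEGFD probe, whose genes are not among the 10. All 10 genes had at least 1 probe. RNA of female Landrace pigs was compared between the longissimus dorsi, a muscle of the back (LDM), and the psoas major, a muscle of the loin (PMM), as part of a study of oxidative and glycolytic muscle. The pigs were weaned at 28 days, were fed to recommendations for each growth phase, were kept off feed for 24 h and were slaughtered at 210 days of age. No group was treated. Each muscle had 3 arrays. The study took both muscles from each animal, but the labels do not say which array came from which pig.

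Capillaries are tubes of endothelial cells. Muscle fibres and other cells secrete VEGFA, which binds the receptors KDR and FLT1 on endothelium and drives the growth of vessels. HIF1A is the oxygen-regulated transcription factor that switches on VEGFA when oxygen is short. The angiopoietins bind the receptor TEK, which governs how stable the vessel wall is, and endoglin (ENG) is a coreceptor for transforming growth factor beta on endothelium. PECAM1 and CDH5 hold endothelial cells together, VWF is the clotting protein that they store, and NOS3 makes the nitric oxide that widens vessels. Oxidative muscle is known for a denser capillary bed than glycolytic muscle. Capillaries themselves were not counted in these files, and in whole muscle fewer endothelial cells and less RNA per cell cannot be told apart.

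Every probe is a DNA 60-mer, and a gene read by several probes is read at several places of its transcript. The sequences below are those of the 2 VEGFA probes on which the muscles did not overlap and the probe of its receptor KDR. Also shown are the dimmer TEK probe, opposite in sign to the other, and the VWF probe as an example of an endothelial marker. All are written 5′ to 3′ as the array files give them, with no part in capitals.
VEGFA A_72_P116846: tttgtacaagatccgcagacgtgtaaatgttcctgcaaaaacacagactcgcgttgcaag
VEGFA A_72_P414353: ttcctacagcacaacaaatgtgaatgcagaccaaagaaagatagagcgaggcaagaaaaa
KDR A_72_P433574: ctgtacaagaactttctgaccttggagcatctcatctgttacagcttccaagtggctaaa
TEK A_72_P245827: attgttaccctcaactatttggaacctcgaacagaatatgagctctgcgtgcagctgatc
VWF A_72_P293294: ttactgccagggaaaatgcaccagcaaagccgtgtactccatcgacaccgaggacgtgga
The 3 VEGFA probes share no run of more than 6 bases with each other, so they are separate readings of the gene. Of the 4 PECAM1 probes, A_72_P288169 and A_72_P384978 share 55 bases and are almost one reading. The median GC content was 45% over the member probes and 40% over all probes. The files give no genome position for these probes, and none is given here.

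Signals are given as log2 of the spot intensity minus log2 of the 75th percentile of the same array, so that 0 is the level of a fairly bright probe and 1 unit is a doubling. Levels of different probes are not compared, because probes differ in brightness. Differences are PMM minus LDM. The 75th percentile lay between 595 and 883 units, 58.5% to 72.4% of the spots of an array were well above background, and none was saturated. The 12 skeletal muscle fibre markers tested were well above background on all 6 arrays, although the labels' text on RNA extraction speaks of adipose tissue. Of the 22 member probes, 21 entered the test, and 19 of these were well above background on every array. The KDR probe and TEK A_72_P245827 missed that mark on PMM replicate 1. The VEGFD probe was not tested, being well above background on only 2 LDM arrays and 1 PMM array.

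VEGFA carried the clearest difference among the members, with more signal in PMM on all 3 of its probes. Values below stand in the order of the replicate numbers. On A_72_P116846 the LDM arrays read -1.01, -1.16 and -1.53, and the PMM arrays read 0.26, -0.45 and -0.20. All 3 PMM arrays lay above all 3 LDM arrays. The difference was 1.10 (SE 0.32, 95% interval 0.36 to 1.85), a 2.15-fold higher signal in PMM. On A_72_P414353, the brightest VEGFA probe, LDM gave 0.81, 0.52 and 0.14 and PMM gave 1.80, 1.14 and 0.86. The muscles again did not overlap, and the difference was 0.77 (SE 0.36), 1.71-fold, with a 95% interval of -0.05 to 1.59. On A_72_P322698 LDM gave -1.32, -2.63 and -2.52 and PMM gave -0.59, -2.15 and -1.45, so that LDM replicate 1 lay above 2 of the PMM arrays. The difference there was 0.76 (SE 0.50). Non-overlap with PMM above was found for 3.07% of all probes, and for 2 of the 21 member probes.

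Arrays with the same replicate number varied together and carried the same scan number, which stands for the day of scanning, so the pairs were read as well. The arrays of replicates 2 and 3 also shared a slide in each pair, and those of replicate 1 did not. VEGFA was higher in PMM in all 3 pairs on all 3 probes, by 1.27, 0.72 and 1.33 on A_72_P116846, by 0.98, 0.61 and 0.71 on A_72_P414353 and by 0.73, 0.48 and 1.07 on A_72_P322698. In the limma test over all probes, with Benjamini-Hochberg adjustment, 0 of the 21 member probes were called, against 0.031% of all probes, and 1 member had an unadjusted p under 0.05, against 2.63%. The adjusted p was close to 1 for each of them. For the 2 non-overlapping VEGFA probes the exact two-sided permutation p was 0.1, the smallest that 3 against 3 arrays allow. With the replicate number as a block and 1 probe per named gene, limma called VEGFA higher in PMM (A_72_P414353, adjusted p = 0.024), and 3.99% of the named genes were called in that direction. With the block over all probes, 0 member probes were called, against 0.0658% of all probes, and the lowest adjusted p among them was 0.20, that of VEGFA A_72_P116846, while 4 had an unadjusted p under 0.05, against 11.1%. VEGFA A_72_P116846 was called higher by limma with the slide as a random block (adjusted p = 0.034), as were 0.728% of all probes, and with the replicate block without replicate 1 (adjusted p = 0.018), as were 1.99%.

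**Figure D1:**
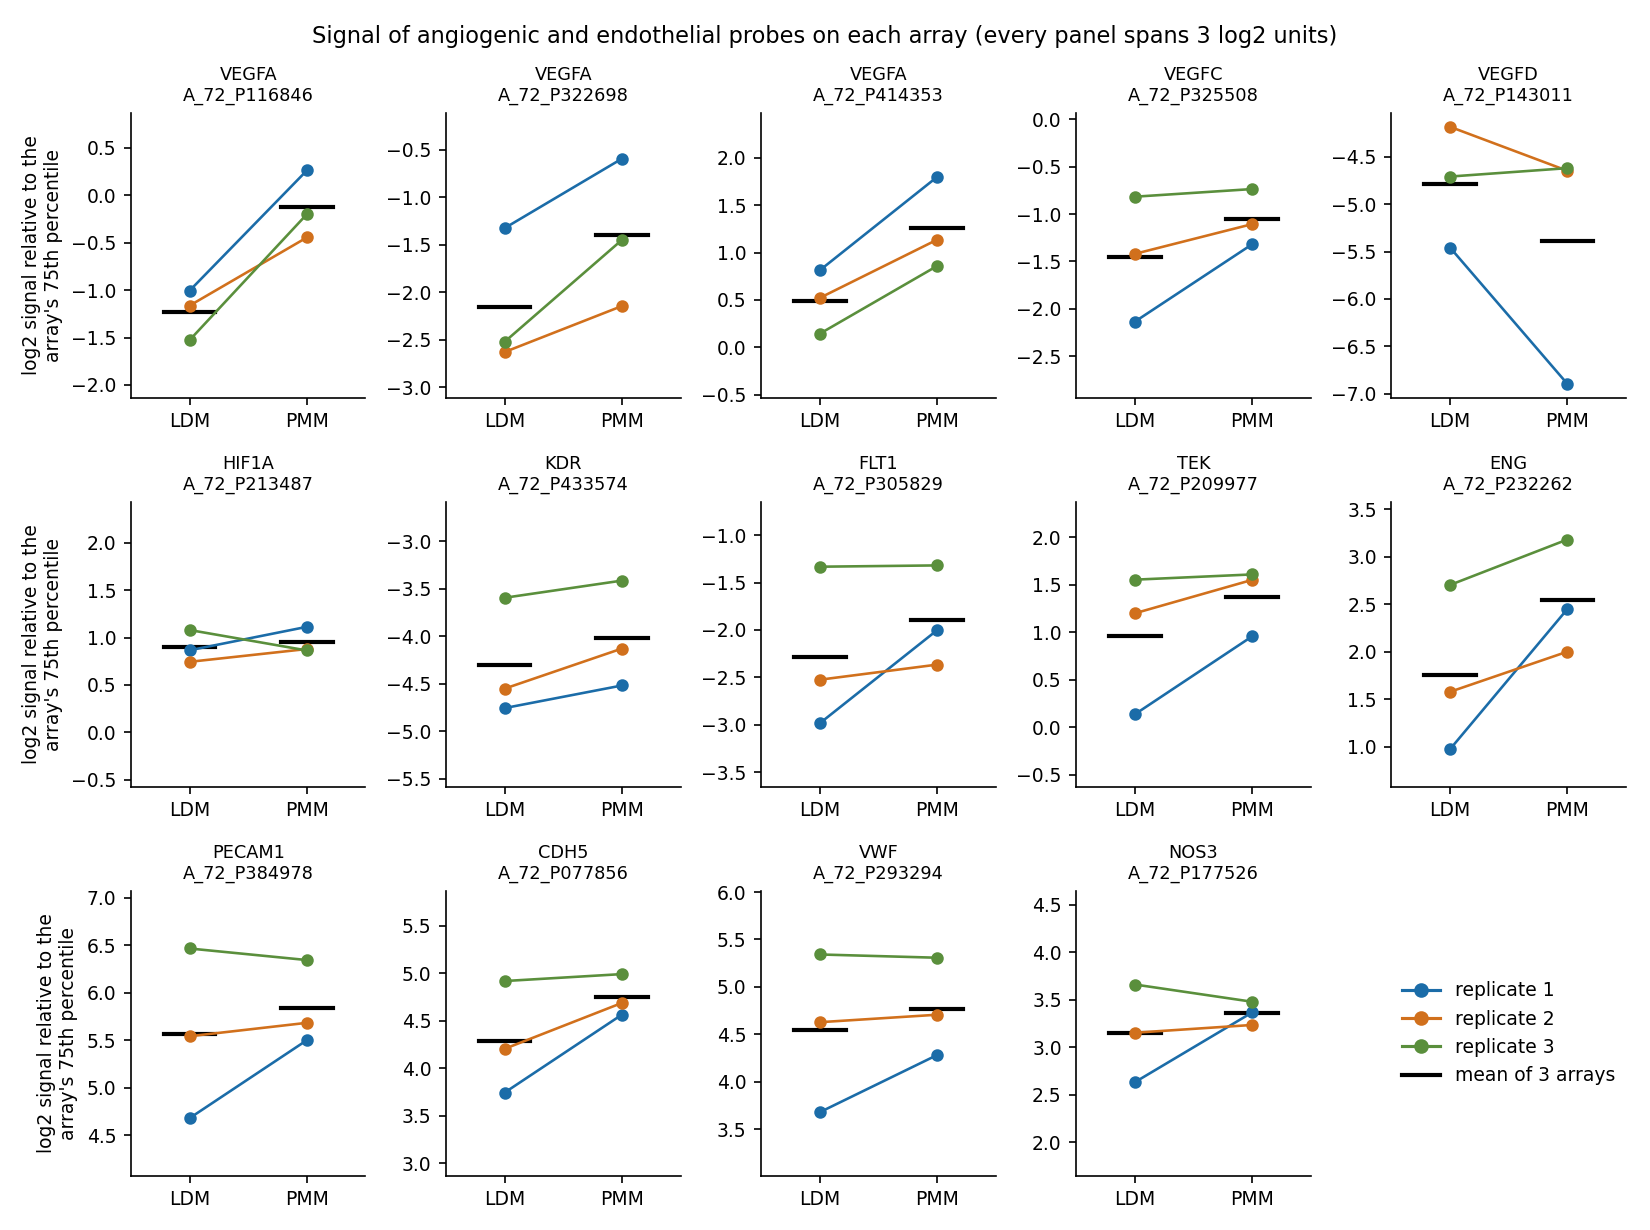
Log2 signal relative to the array's 75th percentile for 14 probes, one panel each, with LDM at the left and PMM at the right. Points are arrays, lines join arrays of the same replicate number and bars are means of 3 arrays; all 3 VEGFA probes were higher in PMM in every pair, whereas in replicate 3 only 5 of the 8 endothelial genes were.

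VEGFC and VEGFD, known as ligands for the growth of lymphatic vessels, gave no such separation. VEGFB and PGF had no named probe. VEGFC read -2.13, -1.42 and -0.82 in LDM and -1.32, -1.11 and -0.74 in PMM. The muscles overlapped, and the difference was 0.40 (SE 0.39). The VEGFD probe read -5.46, -4.19 and -4.71 in LDM and -6.89, -4.65 and -4.62 in PMM, mostly too dim to be told from background. HIF1A read 0.87, 0.74 and 1.08 in LDM and 1.11, 0.88 and 0.86 in PMM. Its difference of 0.06 (SE 0.29) was smaller than the spread within either muscle (95% interval -0.60 to 0.71). HIF1A is regulated largely at the protein level, which arrays do not read.

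Among the receptors, ENG differed most. It read 0.97, 1.58 and 2.70 in LDM and 2.45, 2.0 and 3.18 in PMM, so that LDM replicate 3 lay above 2 of the PMM arrays. Its difference was 0.79 (SE 0.50, 95% interval -0.35 to 1.94), and the pairs gave 1.48, 0.42 and 0.48. With the block and 1 probe per named gene its adjusted p by limma was 0.052. KDR, the main signalling receptor for VEGFA, read -4.76, -4.55 and -3.59 in LDM and -4.52, -4.13 and -3.41 in PMM, a difference of 0.28 (SE 0.43). The KDR pairs all pointed to PMM, by 0.24, 0.42 and 0.18. On PMM replicate 1 this probe was not well above background, and over all alternatives its difference ran from -0.02 to 1.04. FLT1, which binds VEGFA tightly and signals weakly, read -2.98, -2.52 and -1.33 in LDM and -2.0, -2.37 and -1.32 in PMM on A_72_P305829. That difference was 0.38 (SE 0.48), nearly all of it from replicate 1, whose pair gave 0.98 against 0.16 and 0.01 in the others. The other FLT1 probes gave 0.33 (A_72_P310443) and 0.34 (A_72_P306628). Their pairs gave 0.42, 0.53 and 0.06 on A_72_P310443 and -0.14, 0.13 and 1.03 on A_72_P306628. The replicate that carried the FLT1 difference thus varied with the probe. The 2 TEK probes differed in sign, with 0.41 (SE 0.42) on A_72_P209977 and -0.05 (SE 0.68) on the dimmer A_72_P245827. The pairs of A_72_P245827 gave -0.46, 0.09 and 0.20, and PMM replicate 1 was not well above background on it. On A_72_P209977, LDM read 0.14, 1.20 and 1.56 and PMM read 0.96, 1.55 and 1.61.

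PECAM1, CDH5, VWF and NOS3, the members counted as endothelial markers, had smaller differences than VEGFA, a contrast that was not itself tested. They varied more within LDM than between the muscles. ENG, counted with the receptors, differed by 0.79, against 0.77 on the brightest VEGFA probe. PECAM1 on its brightest probe, A_72_P384978, read 4.68, 5.54 and 6.47 in LDM and 5.50, 5.68 and 6.34 in PMM. The difference was 0.28 (SE 0.48, 95% interval -0.82 to 1.38), and the highest of the 6 arrays was an LDM array. All 4 PECAM1 probes were higher in PMM, by 0.23 to 0.47. CDH5 on A_72_P077856 read 3.74, 4.20 and 4.92 in LDM and 4.57, 4.69 and 4.99 in PMM, a difference of 0.46 (SE 0.37). Its second probe, A_72_P310398, gave 0.20 (SE 0.49). VWF read 3.68, 4.63 and 5.34 in LDM and 4.28, 4.71 and 5.31 in PMM, and differed by 0.22 (SE 0.47). NOS3 on A_72_P177526 read 2.63, 3.15 and 3.66 in LDM and 3.37, 3.23 and 3.48 in PMM, a difference of 0.21 (SE 0.34). Its second probe, A_72_P292224, gave 0.20 (SE 0.30). On each of these 9 marker probes the muscles overlapped. None of the 16 receptor and marker probes was called by limma, with or without the block, and 0 of the 16 had an unadjusted p under 0.05 without the block and 1, that of ENG, with it. The intervals span lower and higher levels in PMM alike, so equal capillary RNA in the muscles was not shown either.

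**Figure D2:**
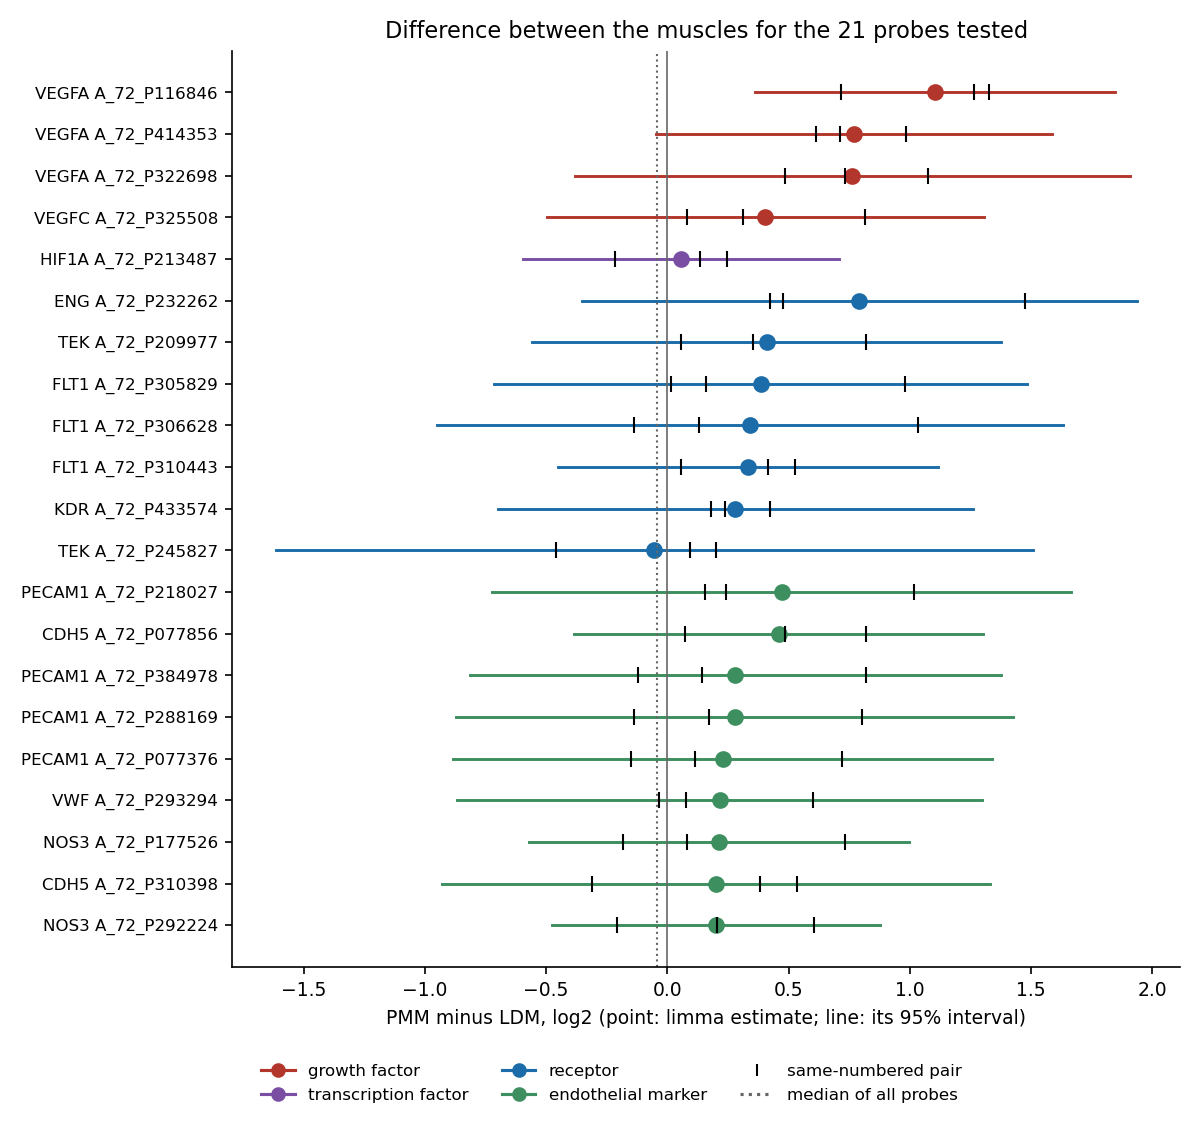
PMM minus LDM difference (log2) of the 21 tested probes, grouped by role, with the 95% interval from limma as a line and the 3 same-numbered pairs as ticks. The interval of VEGFA A_72_P116846 lies above 0 and those of the other 20 probes include 0; with normexp background correction 5 of the 20 probes that lie above 0 here fall below it and TEK A_72_P245827 moves above it.

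Over the members, 20 of the 21 tested probes were higher in PMM, with a median difference of 0.33, while 44.2% of all probes were higher in PMM and their median was -0.04. In all 3 pairs 11 of the 21 probes were higher in PMM, against 16.4% of all probes. Probes of one gene and genes of one cell type vary together from array to array, so these counts are not 21 separate readings. With normexp background correction, which moved the median of all probes by 0.23 to 0.19, 16 of the 21 probes were higher in PMM and 14 lay above that median. The 3 VEGFA probes lay 0.35 to 0.74 above it. Of the 8 endothelial genes (the receptors and markers, each by its brightest probe), 8 were higher in PMM and 8 lay above the median of all probes by the 75th percentile scaling, and 5 and 4 with normexp.

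The difference in the endothelial genes depended on the replicate. In replicate 1, 8 of the 8 genes were higher in PMM, with a median difference of 0.82. The arrays of that pair lay on different slides, so muscle and slide cannot be told apart in it. In replicate 2, 8 of the 8 were higher, with a median of 0.26. In replicate 3, 5 of the 8 were higher, with a median of 0.03. Over all probes the medians of the same pairs were -0.01, 0.01 and -0.10. With the slide as a random block the median difference of the 8 genes was 0.20, against 0.33 without it, and 8 of the 8 were higher in PMM. Within LDM these genes spanned 1.03 to 1.79 log2 units between the arrays, more than the largest difference between the muscles. Averaged over the 8 genes after subtracting each gene's own mean, the level was -0.89, -0.25 and 0.56 on the LDM arrays and -0.08, 0.02 and 0.62 on the PMM arrays. Both arrays of replicate 3 stood high, and LDM replicate 1 stood lowest. Without LDM replicate 1, 4 of the 8 genes were higher in PMM and their median difference was 0.01. Without PMM replicate 3 these values were 6 of 8 and 0.12, and without LDM replicate 3 they were 8 of 8 and 0.72. VEGFA did not follow these genes. On A_72_P414353 it stood at -0.07, -0.36 and -0.73 around its own mean in LDM and at 0.92, 0.26 and -0.02 in PMM. On that probe the array with the most endothelial RNA had the least VEGFA within each muscle. A_72_P116846 had this order in LDM only, and in PMM it was lowest on replicate 2 (-0.45, against -0.20 on replicate 3). A_72_P322698 was lowest on replicate 2 in both muscles. With any 1 of the 6 arrays left out, all 3 VEGFA probes were higher in PMM, with differences from 0.36 to 1.26.

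**Figure D3:**
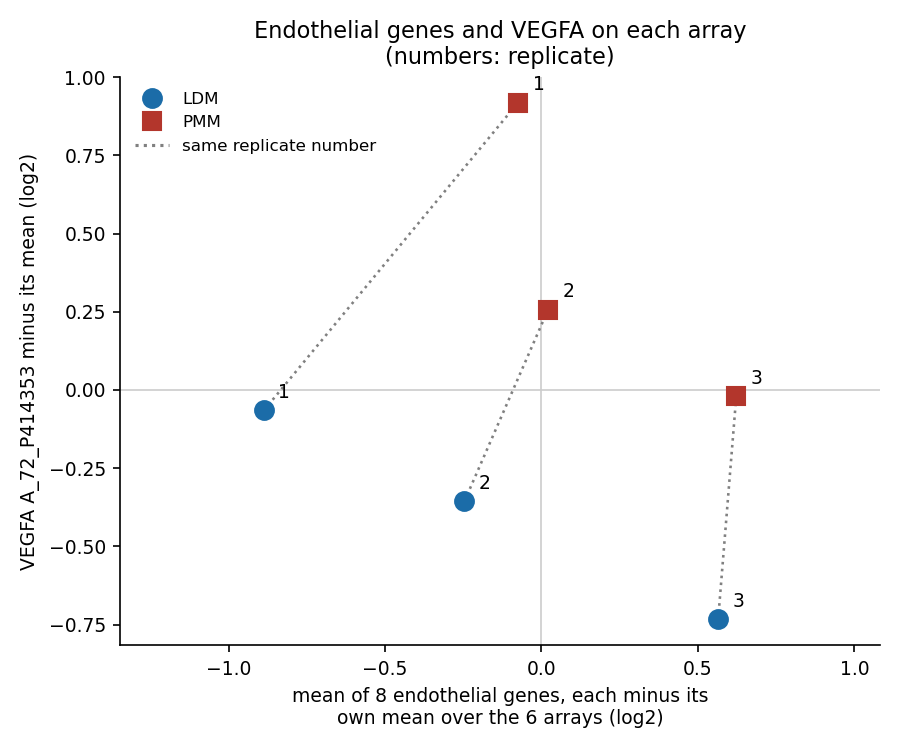
Each point is an array, numbered by replicate, with the mean level of the 8 endothelial genes around their own means (log2) on the horizontal axis and VEGFA A_72_P414353 around its mean (log2) on the vertical axis. PMM lies above LDM in VEGFA in every pair joined by a dotted line, while the shift to the right in endothelial level is large in replicate 1 and near 0 in replicate 3.

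Other properties moved between the arrays as well. The summed linear signal of the 12 muscle fibre markers, in units of the 75th percentile, was 7981, 4659 and 6545 on the LDM arrays and 9615, 5795 and 6463 on the PMM arrays. That of the 7 tested endothelial cell markers was 55.0, 95.3 and 169 in LDM and 96.1, 110 and 165 in PMM. LDM replicate 1, the lowest in endothelial RNA, was also the lowest LDM array in the 7 tested adipocyte markers (190, with 344 and 317 on the other LDM arrays and 352 to 382 in PMM) and in the 3 tested leukocyte markers (0.95, with up to 4.30 in LDM and 1.55 to 3.46 in PMM). Gene by gene, 2 of the 7 adipocyte markers were higher in PMM and 5 were lower, with a median difference of -0.32, and the sum is carried by the bright probes of PNPLA2 and FABP4. The 4 tested fibroblast markers summed to 97.6 to 220 in LDM and 71.0 to 152 in PMM, and all 4 were lower in PMM, with a median difference of -0.64. With the block and 1 probe per named gene, limma called the collagens COL1A1 and COL1A2 and the lipid droplet genes PLIN1 and CIDEC lower in PMM, as it did 2.47% of the named genes, and the lipase gene PNPLA2 and the myoglobin gene MB higher. PLIN1 entered the test through LDM, being well above background on 2 of the 3 PMM arrays, and read -5.51 on PMM replicate 1. Of the 7 tested adipocyte markers and of the 7 tested endothelial cell markers, 6 each were well above background on all 6 arrays. No erythrocyte marker had a named probe. LDM replicate 1 also had the largest share of spots well above background and LDM replicate 3 the smallest. The part of these cell types and of the arrays' brightness in the endothelial values was not tested.

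The 5 lists of vascular genes, each gene read by its brightest tested probe, place the members among their neighbours. Of the 38 endothelial markers listed, 20 had a probe and all of these were tested; 19 were higher in PMM and 1 was lower, with a median difference of 0.38, while the median of the 3283 named genes was -0.01. None was called by limma, with or without the block. The genes furthest from 0 were SOX18, a transcription factor of developing vessels (0.94), ENG, the water channel AQP1 (0.68) and the fatty acid receptor CD36 (0.65), which muscle fibres and fat cells also make. Without LDM replicate 1 these values were 0.51 for SOX18, 0.40 for ENG, 0.22 for AQP1 and 0.52 for CD36. The 1 lower gene was PROCR, the endothelial protein C receptor (-0.44), and FABP4, a fatty acid binding protein that was also counted among the adipocyte markers, differed by 0.10. SOX18 read -0.89, 0.47 and 0.36 in LDM and 1.05, 1.16 and 0.57 in PMM, with no overlap. The lymphatic regulator PROX1 also did not overlap, with a difference of 0.45. Non-overlap with PMM above was found for 2 of the 20 genes, against 3.07% of all probes. The list's median was 0.02 without LDM replicate 1 and 0.24 with the slide as a random block. With normexp it lay 0.08 above the median of all probes, compared with 0.42 by the 75th percentile scaling.

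Secreted factors differed gene by gene. Of 24 listed, 14 had a probe and 13 were tested, 10 of them higher and 3 lower in PMM, with a median of 0.14. ANGPT1, the TEK ligand made by cells around the capillary, read -0.79, -0.21 and -1.33 in LDM and 0.79, 0.95 and -0.74 in PMM. Its difference of 1.11 (SE 0.51) was the largest of the list, and it was higher in PMM in all 3 pairs. With the block and 1 probe per named gene limma called it (adjusted p = 0.0066), as it called VEGFA. In that fit 2 of the 12 genes of the list were called higher in PMM, against 3.99% of the named genes. ANGPT1 had an adjusted p by limma of 0.23 with the block over all probes and 0.092 with the slide as a random block. ANGPT2, the TEK ligand that loosens vessels, differed by 0.10. Angiogenin (ANG) had a difference of -0.48, with SE 0.60. Of 23 receptors listed, 12 had a probe and 11 were tested, 8 higher and 3 lower, with a median of 0.28. After ENG the genes furthest from 0 were NOTCH4 (0.59), the Notch ligand JAG1 (0.43) and TEK. Without LDM replicate 1 NOTCH4 stood at 0.21 and JAG1 at -0.061, and without PMM replicate 3 they stood at 0.24 and -0.026. None of the receptors was called in any of these fits. None of the secreted factors, by its brightest probe, was called without the block or with the block over all probes.

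Of 20 hypoxia genes listed, 9 had a probe and 8 were tested, 5 higher and 3 lower, with a median of 0.04. PPARGC1A, a coactivator that raises mitochondrial genes and VEGFA in muscle, read 2.53, 2.08 and 1.79 in LDM and 3.79, 2.67 and 2.63 in PMM. PMM lay above LDM with no overlap, as for 3.07% of all probes. Its difference was 0.90 (SE 0.41), and 0.52 without PMM replicate 1. By limma with the block and 1 probe per named gene it was called higher in PMM (adjusted p = 0.014). In that fit 1 of the 8 genes of the list was called higher, against 3.99% of the named genes. PPARGC1A had an adjusted p by limma of 0.24 with the block over all probes and 0.10 with the slide as a random block. EPAS1, the oxygen-regulated factor abundant in endothelium, differed by 0.63 and was higher in PMM in all 3 pairs. BNIP3L, a mitophagy receptor that HIF1A induces, had a difference of -0.47 with no overlap (PMM below LDM for 2.87% of all probes), and ADM, the vasodilator adrenomedullin, differed by 0.21. Mural cells, the pericytes and smooth muscle that wrap vessels, had 6 of 12 listed genes on the array, and all 6 were higher in PMM, with a median of 0.53 and none called. DES, the intermediate filament gene that muscle fibres make too, is 1 of the 6 and was also counted among the muscle fibre markers. RGS5 differed by 0.75, KCNJ8 by 0.54 and CNN1 by 0.52. Without LDM replicate 1 the values were 0.30 for RGS5 and 0.040 for KCNJ8, and without PMM replicate 1 or LDM replicate 2 CNN1 stood at 0.30 and 0.34. ABCC9 differed by 1.03, but it read -0.10, -0.32 and -0.32 in LDM and 2.55, -0.09 and -0.11 in PMM, and its difference was 0.14 without PMM replicate 1.

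**Figure D4:**
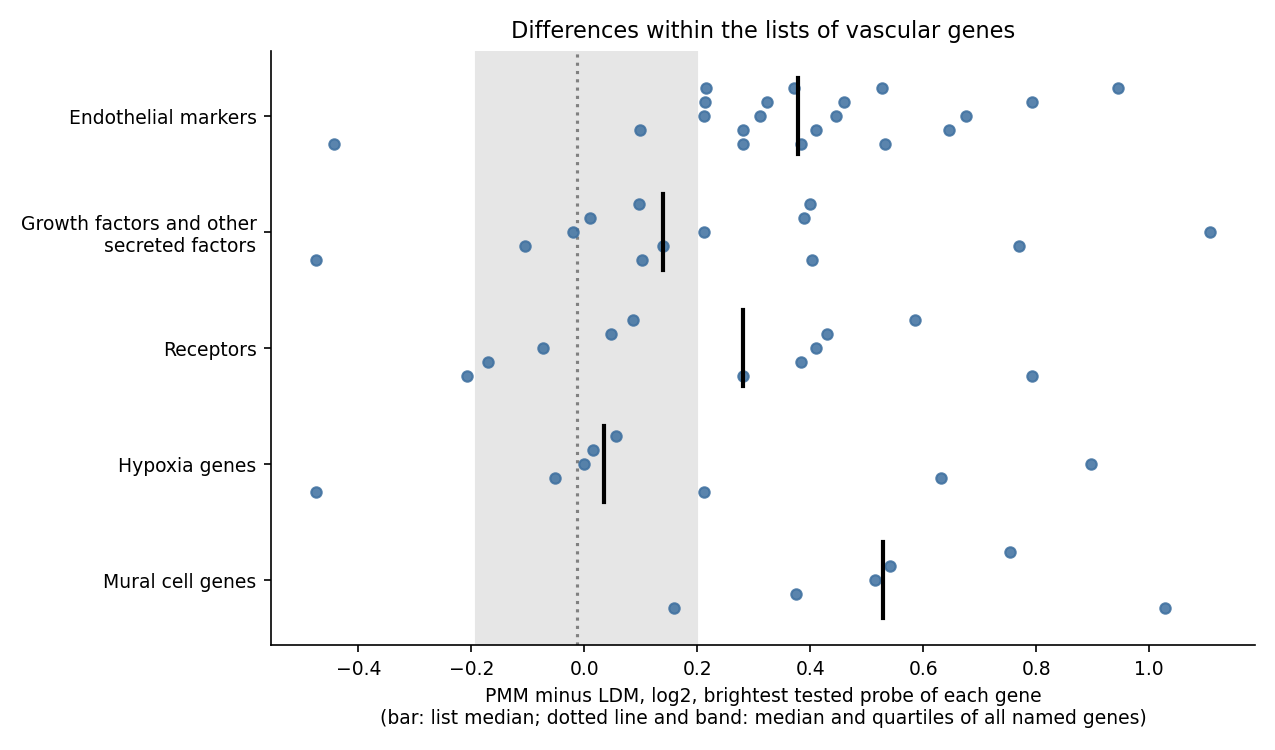
PMM minus LDM difference (log2) of each tested gene of the 5 lists, 1 point per gene, with list medians as bars and the median and quartiles of the 3283 named genes as dotted line and band. Endothelial and mural cell genes lie mostly to the right of the band, whereas hypoxia genes spread to both sides. Without LDM replicate 1 the medians are 0.02 (endothelial markers), 0.30 (mural cell genes), -0.23 (secreted factors), -0.004 (receptors) and -0.02 (hypoxia genes).

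Among 4515 named probes that were well above background on all 6 arrays, the profile of VEGFA A_72_P414353 was most like those of AQP7, a glycerol channel (Pearson r = 0.996), CEND1, a neuronal protein of cell cycle exit (r = 0.996), and MDH1, cytosolic malate dehydrogenase (r = 0.996). The profile of PECAM1 A_72_P384978 was most like those of the proteasome subunit PSMB10 (r = 0.997), the cyclin CCND2 (r = 0.997) and the MHC class II gene SLA-DRA (r = 0.996). Against the same PECAM1 probe, VWF stood at r = 0.986, VEGFC at r = 0.973 and VEGFA A_72_P414353 at r = -0.35. These coefficients describe 6 arrays that share the contrast of the muscles and the replicate numbers.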

How the data were processed

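Cy3-labelled total RNA of LDM and PMM was read on Agilent arrays of one colour, 3 per muscle. The authors deposited linear spot intensities from Agilent Feature Extraction 10.5.1.1, with local background subtracted and no normalization between arrays. The authors named the MultiExperiment Viewer for differential expression, and the normalization and the exact test are not given in the sources used here. The value table of the series held the same intensities. Control spots and outlier spots (6 to 161 per array) were left out, and repeated spots averaged. The log2 of each deposited processed intensity minus that of the array's 75th percentile was taken. Probes well above background on all 3 arrays of either muscle, with at least 2 values per muscle, were tested, which left 25835.

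The muscles were compared by two-sided tests in limma 3.58.1 (R 4.3.3), with the functions lmFit and eBayes, Benjamini-Hochberg adjustment over all probes and a threshold of 0.05, after a check of the test on simulated data. The fit with 1 probe per named gene took the brightest probe. Single probes were also compared by exact permutation. Precision is limited by the number of arrays, and p-values measure the spread between these samples. RefSeq names (Sscrofa11.1 table, names only) matched 12 of the 12 member probes that had such an accession. Deviations from the muscle means correlated at 0.62, 0.70 and 0.56 between arrays of the same replicate number and at -0.54 to -0.01 between others, and on that basis same-numbered arrays were treated as pairs. Replicate number and scan number coincided, and replicates 2 and 3 each shared a slide. These correlations therefore cannot tell a shared pig from a shared day of scanning or, for replicates 2 and 3, a shared slide.

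All member probes are named, and of each list up to 4 tested genes with the largest absolute difference. Genes that did not overlap between the muscles, ANGPT2, PROCR, FABP4, DES and the cell type markers were named after their values were seen. Profiles most alike were the 3 named genes with the highest r. Members and lists were chosen with earlier results of these data known. The alternatives were other normalization and background correction, other filters, the value table, blocks for replicate or slide, and left-out arrays and pairs.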

Additional observations from a re-analysis of the deposited data

How the results depend on the processing

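Of all probes limma called 8, which became 7 after quantile normalization and 9 after median centring. It called 0 with the percentile over detected probes, with no filter, with the strict filter, with outlier spots kept, with 1 probe per named gene and with the replicate block and quantile normalization, and 3 with normexp. It called 17 with the replicate block, 212 with the block and 1 probe per named gene, 300 with the slide as a random block, and 0 to 802 with an array or pair left out. Member probes called were 0, and 1 with the block and 1 probe per named gene, 1 with the slide block and 0 to 1 with arrays or pairs left out. The one called was VEGFA: A_72_P414353 in the first, and A_72_P116846 with the slide block (adjusted p = 0.034) and with the block without replicate 1 (adjusted p = 0.018). Over all alternatives the adjusted p ran from 0.024 to 1 for A_72_P414353 and from 0.018 to 1 for A_72_P116846. Genes called with the block and 1 probe per named gene were the 2 secreted factors VEGFA and ANGPT1, and PPARGC1A of the hypoxia list. The block changed no other call among the members and the 5 lists of vascular genes. With 1 array left out, list medians were -0.23 to 0.48 (secreted factors), -0.004 to 0.63 (receptors) and 0.30 to 0.85 (mural cell genes). With normexp the hypoxia median was 0.29 and that of all probes 0.19. Of 768 alternative values of single probes, 40 changed sign, none of them called. With median centring HIF1A stood at -0.0015. With normexp the values were -0.11 for HIF1A, -0.076 for NOS3 A_72_P177526, -0.022 for PECAM1 A_72_P288169, -0.023 for PECAM1 A_72_P384978, -0.11 for VWF and 0.97 for TEK A_72_P245827. With the slide block they were -0.019 for HIF1A and 0.10 for TEK A_72_P245827. With the replicate block and without replicate 1 they were -0.040 (HIF1A), 0.15 (TEK A_72_P245827), -0.050 (NOS3 A_72_P177526), -0.0014 (NOS3 A_72_P292224) and -0.017 (PECAM1 A_72_P077376), and without replicate 3 FLT1 A_72_P306628 stood at -0.0049. With 1 array left out the ranges were -0.025 to 0.15 (HIF1A), -0.15 to 0.93 (FLT1 A_72_P306628), -0.023 to 0.63 (KDR), -0.0042 to 0.70 (TEK A_72_P209977), -0.58 to 0.67 (TEK A_72_P245827), -0.11 to 0.73 (CDH5 A_72_P310398), -0.047 to 0.47 (NOS3 A_72_P177526), -0.058 to 0.70 (PECAM1 A_72_P077376), -0.080 to 0.86 (PECAM1 A_72_P218027), -0.18 to 0.76 (PECAM1 A_72_P288169), -0.16 to 0.73 (PECAM1 A_72_P384978), -0.22 to 0.61 (VWF), -1.04 to 0.11 (ANG), -0.061 to 0.77 (JAG1) and -0.13 to 0.51 (ADM). The causes were not tested.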
